A study of Mus musculus with 39 samples.

Results

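*Zbp1*, *Tlr3*, *Ifih1*, *Aim2*, *Naip1*, *Naip2*, *Naip5*, *Naip6* and *Nlrc4* encode sensors of foreign or misplaced nucleic acid and of bacterial protein, with the adaptor through which the last class of sensors acts. These 9 genes, of 18883 genes named on the array, were read by 12 probes. They were selected on their measured log2 levels over all 7 groups of samples, so those levels and differences are given here as a description and carry no test. Tests are given only for other genes of the same pathways, from lists by function that were chosen with earlier results of these data known.

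The study asked how trichostatin A (TSA), an inhibitor of histone deacetylases, and mRNA for the transcription factor Spi-C alter gene expression in mouse embryos made by somatic cell nuclear transfer, in which the nucleus of a cumulus cell replaces that of an oocyte. RNA was measured on 39 Agilent arrays with 1 colour (Cy3), each hybridized with RNA that had gone through 2 rounds of linear amplification. The labels give the strain (B6xDBA/2)F1 for all samples, and the oocytes and cumulus cells came from females of 8 to 10 weeks, 15 h after an injection of chorionic gonadotropin (hCG). The groups were 7 arrays of unfertilized metaphase II oocytes (OC), 6 of 2-cell embryos fertilized in vitro (IVF), 8 of untreated cloned 2-cell embryos (TSA(-)), 6 of cloned embryos given 5 nM TSA for 8 h from activation (TSA(+)), 4 each of cloned embryos injected at the pronuclear stage with Spi-C mRNA at 1.0 mg/ml (Spi-C 1.0) or 0.1 mg/ml (Spi-C 0.1), and 4 of the donor cumulus cells (Cumulus).

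All embryos were collected after 24 h of culture, and each array held 10 pooled oocytes or embryos or 500 cumulus cells. No group of clones injected with a control mRNA was measured. The replicates are not said to come from separate animals, so the spread within a group, and each p below, is that between pooled samples. The number of arrays in each group limits the precision of every value.

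Levels are the log2 processed intensity of a probe relative to the 75th percentile of its array, so 0 is the level of a fairly bright probe and each step of 1 is a doubling. The level of 1 probe cannot be set against that of another, since probes differ in how strongly they hybridize. A probe counts as well above background when the scanner software marks its spot so. The median share of probes marked so was lowest in OC, at 57.5%, followed by Cumulus, at 63.0%. It lay between 71.6% (Spi-C 0.1) and 73.2% (IVF and Spi-C 1.0) in the embryos, with 72.3% for TSA(-) and 72.0% for TSA(+). The intensity at the 75th percentile had a median of 373 in OC and 2523 in Spi-C 0.1, the dimmest and the brightest groups by this measure.

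The 27 arrays of OC, IVF, TSA(-) and TSA(+) had been read on a G2505B scanner, and the 12 arrays of Spi-C and Cumulus on a G2505C scanner with a later version of the software. The Spi-C and Cumulus arrays share no slide and no scan day with any array of the other 4 groups. In every comparison of Spi-C or Cumulus with TSA(-), the group therefore cannot be told apart from the scanner, the software, the slide and the day.

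The marker genes of the labelled cells were present in each group. The 7 oocyte markers were all detected on each array of OC, IVF and both Spi-C groups, and 6 of them on each array of TSA(-) and of TSA(+), whereas in Cumulus *Bmp15*, *Mos*, *Nlrp5*, *Oosp1* and *Zar1* were well above background on no array. The summed level of these markers was 11.78 ± 0.24 (SD, n = 7) in OC and 0.41 ± 0.45 (n = 4) in Cumulus. The 7 cumulus markers summed to 7.86 ± 0.06 (n = 4) in Cumulus, with the probe of *Cyp11a1* the brightest, and to 1.14 ± 0.55 (n = 7) in OC. The 5 markers of the 2-cell stage that the array holds summed to 7.56 ± 0.18 (n = 6) in IVF, 6.19 ± 0.48 (n = 8) in TSA(-), 6.42 ± 0.36 (n = 6) in TSA(+), 5.82 ± 0.20 (n = 4) in Spi-C 1.0, 5.59 ± 0.40 (n = 4) in Spi-C 0.1, 5.04 ± 0.22 (n = 7) in OC and 3.74 ± 0.24 (n = 4) in Cumulus. The Cumulus sum is that of *Eif1a*, which alone stood at 3.74, while *Tcstv3* and *Zfp352* were well above background on no Cumulus array and *Zscan4c* and *Tcstv1* on 1 each.

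The Cumulus samples also carried leukocyte markers. Of 10 such markers on the array, 9 were well above background on all 4 Cumulus arrays and *Laptm5* on none. Their summed level was 4.82, 5.13, 6.69 and 6.87 on the 4 Cumulus arrays, with *Lyz2*, the lysozyme of macrophages and granulocytes, the brightest probe of the list at 5.68 ± 1.13. For the IVF embryos the same sum was 0.50 ± 0.17, for OC -0.95 ± 0.46, for TSA(-) -0.14 ± 0.27, for TSA(+) 0.09 ± 0.43, for Spi-C 1.0 1.38 ± 0.16, and in Spi-C 0.1 it lay between 0.79 and 1.53. In both Spi-C groups the brightest probe of the list was that of *Cd3e*. Such a sum follows its brightest probes, whose order is not one of transcript abundance.

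Cells recognise viral or displaced nucleic acid through receptors in endosomes and in the cytosol, which pass the signal to adaptors and kinases that switch on interferons and inflammatory cytokines. A further class of cytosolic receptors builds inflammasomes, platforms that activate inflammatory caspases. The NAIP proteins bind bacterial flagellin or secretion-system proteins and then recruit NLRC4. Interferon responses of this kind are known to be weak in mouse embryonic stem cells and early embryos.

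**Figure D1:**
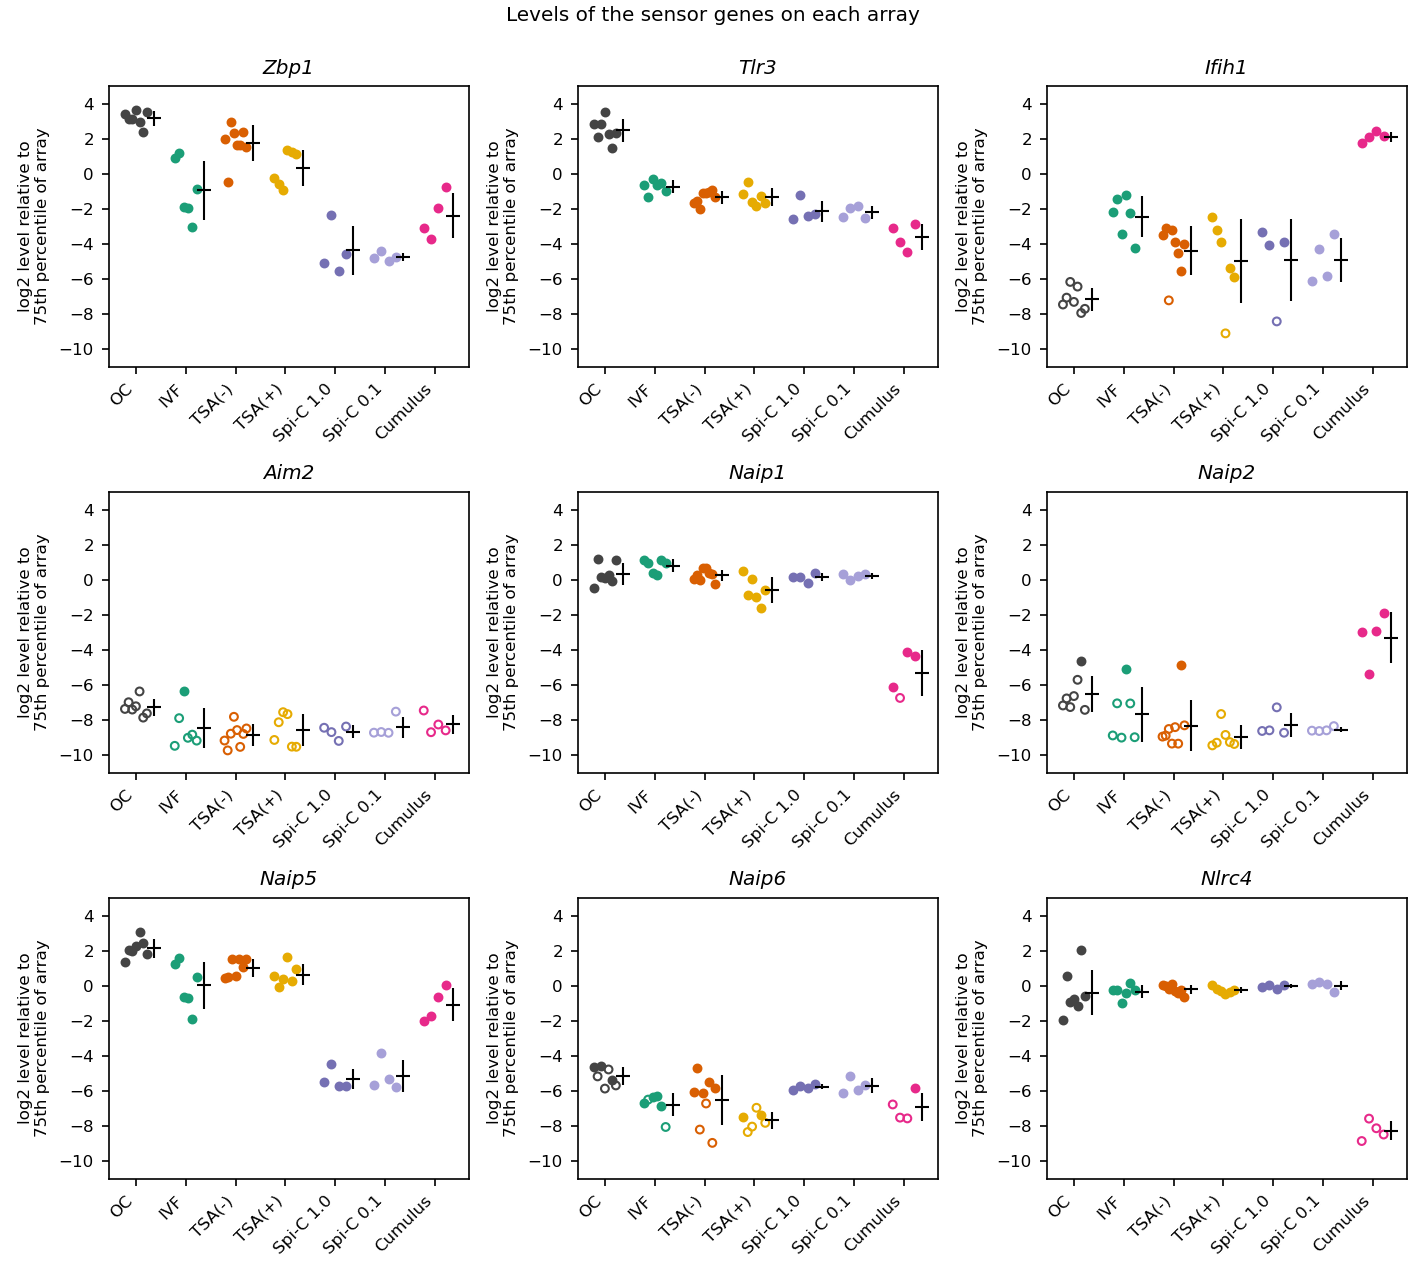
Level of each of the 9 genes on every array (log2 relative to the 75th percentile of the array), by group. Filled points are well above background, open points are not, and the cross and bar beside them give the mean and SD, with Zbp1 and Naip5 lowest in both Spi-C groups and Nlrc4 and Naip1 lowest in Cumulus.

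ZBP1 binds nucleic acid in the left-handed Z form and can start necroptosis through RIPK3. *Zbp1* was well above background on all 39 arrays. Its level was highest in OC, at 3.16 ± 0.43 (SD, n = 7), with a lowest, median and highest value of 2.37, 3.14 and 3.65. TSA(-) followed with 1.74 ± 1.02 (n = 8, range -0.47 to 2.95, median 1.82), TSA(+) with 0.34 ± 1.03 (n = 6, range -0.92 to 1.37, median 0.45) and IVF with -0.94 ± 1.68 (n = 6, range -3.03 to 1.16, median -1.38). IVF embryos varied most, and 4 of the 6 arrays lay below 0.

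In the groups read on the other scanner *Zbp1* was lower still. The 4 Cumulus arrays gave -3.11, -3.72, -1.94 and -0.78, a mean of -2.39 ± 1.30. The Spi-C 1.0 arrays gave -5.09, -2.33, -5.53 and -4.57 (-4.38 ± 1.42), and the Spi-C 0.1 arrays -4.82, -4.41, -4.96 and -4.77 (-4.74 ± 0.23). From OC down to Spi-C 0.1, the values of each group overlap those of the next group in this order.

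Among the 7 comparisons made, the largest difference of *Zbp1* was between the Spi-C clones and the untreated clones, which do not overlap. Spi-C minus TSA(-) was -6.30 (SE 0.51, n = 8 and 8), a 79.0-fold lower level. With the other scalings it ranged from -5.49 (normexp) to -6.87 (quantile). The arrays of the 2 concentrations differed by 0.36 (SE 0.72, n = 4 and 4), less than their spread, and by -0.32 without replicate 2 of Spi-C 1.0. Cumulus minus TSA(-) was -4.13 (SE 0.74, n = 4 and 8), again without overlap.

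IVF embryos had a lower level of *Zbp1* than oocytes, with a difference of -4.11 (SE 0.71, n = 6 and 7) and with no overlap. Over all 39517 probes tested, the median difference of this comparison was itself -0.88, so relative to it *Zbp1* differed by -3.23. Within the slides that hold both groups the difference was -4.67 and -1.79, and within the 4 shared scan days it lay between -4.90 and -2.23. Fewer cells that hold a transcript and less of it in each cell cannot be told apart in such pooled samples.

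Among embryos, *Zbp1* in untreated clones was higher than in IVF on average, by 2.68 (SE 0.77, n = 8 and 6), but the groups overlap. With slide as a block this difference was 0.82, and within the 3 shared slides it was 3.58, 0.40 and -1.38, so its direction was not the same on each slide. TSA(+) minus IVF was 1.28 (SE 0.80, n = 6 and 6), and 2.79, 0.96 and -1.13 within slides. TSA(+) minus TSA(-) was -1.41 (SE 0.55, n = 6 and 8), but 0.25 on the only shared slide, which holds 1 array of each, and 1.05, -2.27 and -1.23 within the 3 shared scan days. The values -1.38, 0.25 and 1.05 each rest on 1 TSA(-) array, replicate 2, which stood at -0.47 where the other 7 lay between 1.51 and 2.95. The value -1.38 rests equally on 1 IVF array, replicate 1 at 0.91, and the -1.13 of TSA(+) minus IVF is from the same slide. On the slide that gave 0.40 the IVF array, replicate 2, stood at 1.16. Without replicate 2 of TSA(-), an array left out for its value, TSA(-) overlapped neither IVF nor TSA(+). The differences were then 2.999 for TSA(-) minus IVF and -1.72 for TSA(+) minus TSA(-).

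The median over all probes was -0.05 for TSA(-) minus IVF, -0.23 for TSA(+) minus IVF, -0.11 for TSA(+) minus TSA(-), -0.11 for Cumulus minus TSA(-) and 0.13 for Spi-C minus TSA(-). Relative to these medians the difference of *Zbp1* was 2.73 for TSA(-) minus IVF, 1.51 for TSA(+) minus IVF, -1.29 for TSA(+) minus TSA(-), -4.02 for Cumulus minus TSA(-) and -6.43 for Spi-C minus TSA(-). Taking the median into account moved each difference by less than its SE.

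TLR3 is the endosomal receptor for double-stranded RNA. Both of its probes were well above background on every array. *Tlr3* was highest in OC, at 2.47 ± 0.65 (n = 7, range 1.48 to 3.50, median 2.33), and was at -0.74 ± 0.37 in IVF (n = 6, range -1.35 to -0.31, median -0.64). IVF minus OC was -3.21 (SE 0.29), or -2.34 relative to all probes, without overlap. The shared slides gave -2.79 and -3.60, and the second probe -2.25.

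Cloned embryos had slightly lower levels of *Tlr3* than IVF, at -1.34 ± 0.37 in TSA(-) (n = 8) and -1.34 ± 0.50 in TSA(+) (n = 6). TSA(-) minus IVF was -0.60 (SE 0.20) and TSA(+) minus IVF -0.60 (SE 0.25), both with overlap, and the shared slides gave -0.40, 0.14 and -0.90 for the first of these. By the second probe TSA(-) minus IVF was -0.83 (SE 0.17) without overlap. TSA(+) and TSA(-) differed by 0.00 (SE 0.24), within their spread.

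In the Spi-C clones the probes of *Tlr3* disagreed. The probe of higher mean level, which was the dimmer of the pair in both Spi-C groups, stood at -2.60, -1.24, -2.43 and -2.32 in Spi-C 1.0. In Spi-C 0.1 it stood at -2.49, -1.96, -1.86 and -2.55, which makes Spi-C minus TSA(-) -0.84 (SE 0.22). The other probe gave 0.02 (SE 0.18) for the same comparison. Both probes were lowest in Cumulus, where the brighter one read -3.09, -3.91, -4.48 and -2.89. Cumulus minus TSA(-) was -2.25 (SE 0.39) by this probe and -2.54 (SE 0.40) by the other, without overlap, and -1.38 by the brighter probe with centring on the median.

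IFIH1 (MDA5) detects long double-stranded RNA in the cytosol. By its brighter probe *Ifih1* was well above background on none of the 7 OC arrays, on all 6 IVF, 7 of 8 TSA(-), 5 of 6 TSA(+), 3 of 4 Spi-C 1.0, all 4 Spi-C 0.1 and all 4 Cumulus arrays. Where a probe is above background on no array of a group, its level there is an upper limit, and a fold against the group is written as at least so much. *Ifih1* was at least 6.66-fold higher in IVF, at -2.47 ± 1.17 (n = 6, range -4.24 to -1.23, median -2.23), than in OC. With normexp background correction, which adds an offset of 50 to each intensity, the difference from those OC levels was 0.70.

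Clones had lower *Ifih1* than IVF on average, but with a wide spread. TSA(-) stood at -4.38 ± 1.39 (n = 8, range -7.23 to -3.13, median -3.96) and TSA(+) at -4.99 ± 2.39 (n = 6, range -9.11 to -2.49, median -4.64), both overlapping IVF. TSA(-) minus IVF was -1.92 (SE 0.68), and -3.28, -2.53 and -0.92 within slides. TSA(+) minus IVF was -2.53 (SE 1.09), and -0.28, -1.44 and -0.65 within slides, lower on each of the 3. The lowest TSA(+) array, replicate 4 at -9.11, was not well above background. With normexp the difference was -1.27 for TSA(-) minus IVF and -1.38 for TSA(+) minus IVF.

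The Spi-C 1.0 arrays gave -3.35, -4.07, -8.43 and -3.90 and the Spi-C 0.1 arrays -6.10, -4.31, -5.85 and -3.43 for *Ifih1*, all within the range of the TSA clones. The cumulus cells were far above every other group, with 1.76, 2.11, 2.45 and 2.13 on their 4 arrays. Cumulus minus TSA(-) was 6.49 (SE 0.51, n = 4 and 8), without overlap. The second probe of *Ifih1* was well above background on no array of any group, Cumulus included, so the probes disagree about this gene. The leukocyte markers described above were high on the same Cumulus arrays, and their part in this level was not tested.

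AIM2 binds cytosolic double-stranded DNA and builds an inflammasome. *Aim2* was well above background on 1 of 39 arrays, the third of the IVF replicates, at -6.36. It was the only one of the 9 genes that was not above background on every array of at least 1 group. No direction is given for *Aim2*, since the sign of its differences changed with the scaling in several comparisons.

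NAIP5 is a receptor for bacterial flagellin. *Naip5* was well above background on all arrays, and its groups stood in the order of those of *Zbp1* apart from the Spi-C pair. OC stood highest, at 2.13 ± 0.53 (n = 7, range 1.36 to 3.04, median 2.03), followed by TSA(-) at 1.01 ± 0.51 (n = 7, as 1 spot was left out as an outlier, range 0.44 to 1.53, median 1.06), TSA(+) at 0.62 ± 0.60 (n = 6, range -0.08 to 1.65, median 0.48) and IVF at 0.02 ± 1.33 (n = 6, range -1.89 to 1.60, median -0.07). These 4 groups overlap, each with the next.

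The Cumulus arrays gave *Naip5* levels of -2.01, -1.71, -0.62 and 0.02, and the Spi-C arrays were lower than all others. Cumulus minus TSA(-) was -2.10 (SE 0.51, n = 4 and 7) without overlap, and -1.21 with centring on the median. Spi-C 1.0 read -5.48, -4.49, -5.70 and -5.70 (-5.34 ± 0.58) and Spi-C 0.1 read -5.68, -3.85, -5.34 and -5.76 (-5.16 ± 0.89). Spi-C minus TSA(-) was -6.26 (SE 0.33, n = 8 and 7), a 76.8-fold lower level without overlap, or -6.39 relative to all probes. The other scalings gave -5.15 to -6.77. The concentrations differed by -0.19 (SE 0.53), and by 0.25 without replicate 2 of Spi-C 0.1.

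*Naip5* in IVF was below that in OC, by -2.10 (SE 0.58), or -1.23 relative to all probes, and the groups overlap. The shared slides gave -2.89 and -1.44. TSA(-) minus IVF was 0.99 (SE 0.58) and TSA(+) minus IVF 0.60 (SE 0.60), both with overlap. Without replicate 5 of IVF they were 0.61 and 0.22. The slides gave 1.76, -0.08 and -0.75 for the first and -0.68, 1.37 and 0.17 for the second. The 3 IVF arrays lowest in *Zbp1*, replicates 3 to 5, were also the 3 lowest in *Naip5*.

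**Figure D2:**
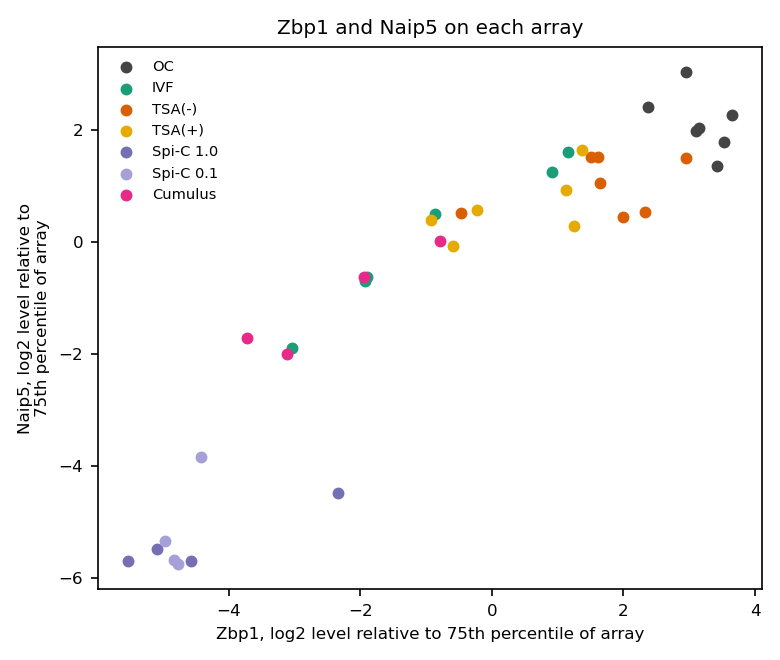
Level of Naip5 against that of Zbp1 on each array, both as log2 relative to the 75th percentile of the array, coloured by group. OC lies at the upper right and the Spi-C arrays at the lower left. The order of the arrays differs between the genes within OC and is the same within IVF.

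NAIP1 recognises a needle protein of bacterial secretion systems. *Naip1* was within a narrow band in oocytes and embryos, with 0.32 ± 0.62 in OC (n = 7), 0.80 ± 0.37 in IVF (n = 6), 0.25 ± 0.32 in TSA(-) (n = 8), 0.14 ± 0.23 in Spi-C 1.0 (n = 4) and 0.21 ± 0.15 in Spi-C 0.1 (n = 4). The direction of IVF minus OC turned with the scaling, from 0.48 to -0.20 when arrays were centred on their median. The mean of TSA(+) was lower than those of these groups, at -0.60 ± 0.75 (n = 6, range -1.60 to 0.49, median -0.75). TSA(+) minus IVF was -1.40 (SE 0.34), with overlap, and -1.46 with slide as a block.

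For *Naip1*, the difference of TSA(+) from TSA(-) was -0.85 (SE 0.33), but 0.24 with slide as a block, on the single shared slide of 1 array each. Within the 3 shared scan days it was -0.50, -0.61 and -1.46, and -0.95 with scan day as a block. Cumulus was far below every other group, with -6.10, -6.75, -4.12 and -4.36, 3 of them well above background. Cumulus minus TSA(-) was -5.58 (SE 0.66) without overlap, and -3.76 with normexp. Spi-C minus TSA(-) was -0.07 (SE 0.13), within the spread of *Naip1*.

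NAIP2 recognises an inner rod protein of secretion systems. *Naip2* was well above background on 1 of 7 OC, 1 of 6 IVF and 1 of 8 TSA(-) arrays, on no TSA(+) or Spi-C array and on all 4 Cumulus arrays, which read -3.01, -5.37, -2.96 and -1.89. Cumulus minus TSA(-) was 5.02 (SE 0.90, n = 4 and 8) with overlap, and 1.92 after normexp background correction. The same Cumulus samples carry the leukocyte markers given above, whose part was not tested.

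NAIP6, like NAIP5, recognises flagellin. *Naip6* by its brighter probe was above background on 3 of 7 OC, 4 of 6 IVF, 5 of 8 TSA(-), 2 of 6 TSA(+), all 4 Spi-C 1.0, all 4 Spi-C 0.1 and 1 of 4 Cumulus arrays, with group means from -7.68 in TSA(+) to -5.17 in OC. On replicate 5 of OC even a level of -4.78 was not above background, so these means do not order the groups. The second probe of *Naip6* was above background on 1 of 4 arrays in each Spi-C group, so the probes disagree there. Spi-C minus TSA(-) was 0.77 (SE 0.52), was 0.42 without replicate 7 of TSA(-) and turned to -0.22 with normexp, and to -0.91 by the second probe. The *Naip* genes are close copies of each other, so whether each probe reads 1 copy alone is uncertain.

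NLRC4 is the adaptor that NAIP proteins recruit. *Nlrc4* was even over the embryo groups, with -0.34 ± 0.38 in IVF (n = 6), -0.21 ± 0.26 in TSA(-) (n = 8), -0.26 ± 0.18 in TSA(+) (n = 6), -0.04 ± 0.12 in Spi-C 1.0 (n = 4) and 0.00 ± 0.27 in Spi-C 0.1 (n = 4). OC stood at -0.40 ± 1.30 (n = 7), with a range from -1.94 to 2.03 that covers all of these. IVF minus OC was 0.06 (SE 0.52) and turned to -0.62 with centring on the median, -0.05 with quantile normalization and -0.10 with normexp. In Cumulus *Nlrc4* was well above background on no array, and was at least 75.4-fold lower than in TSA(-). With normexp, whose offset raises dim probes, Cumulus minus TSA(-) was -3.67.

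By a correlation over the 39 arrays among 22765 probes, the genes most like *Zbp1* in pattern were *Fgf8* (Pearson r = 0.974) and *Fahd2a* (0.972), and those most like *Naip5* (38 arrays) were *Celf3* (0.976) and *Cacna2d2* (0.975). *Tlr3* was most like *Brd1* (0.972), *Naip1* most like *Kpna3* (0.962) and *Nlrc4* most like *Myom2* (0.978) and *Klf17* (0.974). *Ifih1* was most like *Atp6v0d2* (0.908) and *Cd74* (0.897), *Naip2* most like *Hcar2* (0.859) and *Naip6* most like *Spo11* (0.780). Since *Naip2* was above background on 7 arrays and *Naip6* on 23, much of these last values compares levels of background. The arrays compared fall into 7 groups and 2 scanner models, which all of these values share.

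Promoters were taken as 250 bases before to 50 bases after the transcription start. From RefSeq (mouse build GRCm38.p6) they were available for 8 of the 9 genes, all but *Zbp1*. They were searched on both strands for 4 short motifs known from immune promoters, namely the interferon-stimulated response element (ISRE), which is GAAA, any 2 bases and GAAA, the interferon-gamma activated site (GAS) TTCNNNGAA, the PU box GAGGAA bound by the Spi-C family, and the TATA box TATAAA. Of 32851 promoters, 3.44% hold the ISRE, 8.3% the GAS, 28.3% the PU box and 13.6% the TATA box. Of the 8 genes searched, only *Ifih1* held an ISRE, and *Ifih1* and *Aim2* held a PU box. *Naip1* and *Naip5* held the TATA letters, on the minus strand of the promoter, and none of the 8 held the GAS. The promoters of *Ifih1* (chr2:62646206-62646505, minus strand) and *Aim2* (chr1:173420354-173420653, plus strand) are shown since they hold these matches, with the ISRE and PU box in capitals. A match is a description of the letters.
Ifih1: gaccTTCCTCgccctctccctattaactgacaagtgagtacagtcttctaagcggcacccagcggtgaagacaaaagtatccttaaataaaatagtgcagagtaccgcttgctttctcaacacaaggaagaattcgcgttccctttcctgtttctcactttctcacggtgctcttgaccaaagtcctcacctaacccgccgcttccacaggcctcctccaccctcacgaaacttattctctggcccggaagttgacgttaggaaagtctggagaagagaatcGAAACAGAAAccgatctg
Aim2: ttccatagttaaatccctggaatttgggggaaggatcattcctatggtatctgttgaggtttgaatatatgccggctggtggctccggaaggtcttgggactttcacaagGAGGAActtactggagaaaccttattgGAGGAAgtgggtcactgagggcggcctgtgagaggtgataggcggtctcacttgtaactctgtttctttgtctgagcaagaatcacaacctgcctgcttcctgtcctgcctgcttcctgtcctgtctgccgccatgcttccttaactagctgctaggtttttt

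The other genes of the pathways were read from 5 lists that hold 22 genes of nucleic acid sensing, 16 inflammasome and cell death partners, 28 interferon-stimulated genes, 14 interferon receptors, NF-kB genes and cytokines and 7 enzymes that remove or edit nucleic acid. These 87 genes were tested with limma across all 39517 probes tested, at a Benjamini-Hochberg adjusted p under 0.01. The comparisons of TSA(-) and TSA(+) with IVF share the IVF arrays, and those of Cumulus, Spi-C and TSA(+) with TSA(-) share the TSA(-) arrays.

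Between IVF and OC, 31 of the 87 genes were higher and 31 lower, where 23.3% of all probes were higher and 42.7% lower. The median difference over the lists was -0.17, against -0.88 over all probes. Centring on the median left 21 genes higher and put 42 lower, normexp gave 18 and 50, and quantile normalization 30 and 30. In the same order, all probes gave 7089 higher and 21856 lower, 6207 and 27393, and 10061 and 13080. The share of calls that were higher was thus 33.3%, 26.5% and 50% in the lists, against 24.5%, 18.5% and 43.5% over all probes. With slide as a block, 25 were higher and 30 lower, and within the 2 shared slides the median over the lists was -0.23 and -0.36.

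Of the sensing list, 7 genes rose and 13 fell from OC to IVF. *Trim25*, a ubiquitin ligase that activates RIG-I, was detected on 4 of 7 OC arrays and was higher by 7.98 (SE 0.72, adjusted p = 4.36e-11), while *Tbk1*, the kinase of the interferon response, was lower at -4.50 (SE 0.22, adjusted p = 3.89e-17) and *Traf3*, an adaptor of the same pathway, at -3.89 (SE 0.30, adjusted p = 1.43e-12). *Sting1*, the adaptor of cytosolic DNA sensing, was detected on 5 of 7 OC arrays and was higher by 4.22 (SE 0.21, adjusted p = 4.59e-17). Of the inflammasome list, 5 were higher and 5 lower, 4 and 3 of them so detected. Among the higher were *Gsdmd*, the pore-forming protein of pyroptosis, at 4.56 (SE 0.22, adjusted p = 2.65e-17) and on 1 of 7 OC arrays above background, and *Fadd* at 4.08 (SE 0.24, adjusted p = 3.63e-15). Of the interferon-stimulated genes, 12 were higher and 5 lower, 10 and 4 of them so detected. The chemokine *Cxcl10* was at least 48.3-fold higher, being above background on no OC array, and *Irf9*, above it on 2 of 7, was higher by 7.10 (SE 0.39, adjusted p = 5.14e-16). The receptor and NF-kB list had 4 higher and 5 lower, with *Tnfaip3* (3 of 7 OC arrays above background) at 3.42 (SE 0.30, adjusted p = 2.85e-11) and *Nfkbia* at -2.75 (SE 0.31, adjusted p = 4.4e-09), and the enzymes 3 and 3, with *Rnaseh2a* (6 of 7 OC arrays) at 3.68 (SE 0.35, adjusted p = 1.02e-10) and *Samhd1* at 2.47 (SE 0.26, adjusted p = 7.96e-10). For each gene named here and in the comparisons that follow, every array of the first group lay on the side of the difference from the mean of the second group.

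Between TSA(-) and IVF, 14 of the 87 genes were higher and 13 lower, with 8.49% of all probes higher and 10.3% lower. The median over the lists was -0.02 and over all probes -0.05. Quantile normalization gave 16 and 14, centring on the median 15 and 13, and normexp 15 and 19. With each of these more of all probes were lower than higher. With slide as a block, 7 were higher and 6 lower, and the 3 shared slides gave medians of -0.04, -0.12 and 0.03. Higher and lower were 3 and 3 of the sensing genes, 3 and 3 of the inflammasome genes, 4 and 5 of the interferon-stimulated genes, 2 and 2 of the receptor list and 2 and 0 of the enzymes. *Ripk3*, the kinase that ZBP1 recruits in necroptosis, was higher in TSA(-) by 6.03 (SE 0.64, adjusted p = 2.75e-08), and by 5.61 (adjusted p = 9.14e-05) with slide as a block, and it was above background on 5 of 6 IVF arrays. *Ifit3*, an interferon-stimulated gene above background on 1 of 8 TSA(-) arrays, was lower at -4.75 (SE 0.58, adjusted p = 3.23e-07) and at -5.17 (adjusted p = 6.65e-05) with the block. *Casp4*, detected on 2 of 8 TSA(-) arrays, was lower at -3.89 (SE 0.44, adjusted p = 9.28e-08). Also higher were *Traf6* at 2.55 (SE 0.33, adjusted p = 8.45e-07), *Irak4* at 2.08 (SE 0.33, adjusted p = 1.71e-05), *Cxcl10* at 2.13 (SE 0.49, adjusted p = 0.0014), *Ifnar2* at 2.53 (SE 0.53, adjusted p = 0.000553), *Tyk2* at 1.47 (SE 0.27, adjusted p = 0.000131), *Rnaseh2b* at 1.45 (SE 0.21, adjusted p = 5.4e-06) and *Skiv2l* at 1.06 (SE 0.22, adjusted p = 0.000555). *Cgas*, the cytosolic DNA sensor, was lower at -1.21 (adjusted p = 0.000408). With the block the adjusted p was 0.0495 for *Cgas*, 0.0301 for *Cxcl10*, 0.027 for *Ifnar2* and 0.0454 for *Skiv2l*, past the threshold for none of these 4, and under 0.01 for the other genes named in this comparison.

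Between TSA(+) and IVF, 15 genes were higher and 11 lower, with 7.83% of all probes higher and 11.1% lower. Quantile normalization gave 17 and 11, centring on the median 18 and 8, and normexp 16 and 17. Over all probes these scalings gave 3838 higher and 3710 lower, 4179 and 2857, and 3793 and 6537. By list, higher and lower were 4 and 1 of the sensing genes, 3 and 5 of the inflammasome genes, 4 and 3 of the interferon-stimulated genes, 2 and 2 of the receptor list and 2 and 0 of the enzymes. With slide as a block there were 13 and 9, and within the 3 shared slides the median over the lists was -0.22, -0.24 and -0.11, beside -0.19 over all arrays and -0.23 over all probes. *Ripk3* was higher by 6.60 (SE 0.69, adjusted p = 2.13e-08), *Casp4*, an inflammatory caspase above background on 2 of 6 TSA(+) arrays, lower at -3.94 (SE 0.47, adjusted p = 2.54e-07) and *Ifit3* at least 12.3-fold lower. Other large differences in the lists were *Traf6* at 2.50 (SE 0.35, adjusted p = 3.34e-06), *Irak4* at 1.93 (SE 0.36, adjusted p = 0.000115), *Cxcl10* at 2.27 (SE 0.53, adjusted p = 0.00144), *Ifnar2* at 2.77 (SE 0.57, adjusted p = 0.000433), *Nfkbia* at -1.999 (SE 0.32, adjusted p = 1.99e-05), *Rnaseh2b* at 1.53 (SE 0.23, adjusted p = 6.29e-06) and *Skiv2l* at 0.99 (SE 0.24, adjusted p = 0.00218). With slide as a block *Cxcl10* had an adjusted p of 0.0169 and was not called, and the other genes named in this comparison had one under 0.01. Between TSA(+) and TSA(-), none of the 87 genes passed in limma, with 18 at an unadjusted p under 0.05 beside 6434 of the 39517 probes, and after adjustment 0.043% of all probes were higher and 0.0936% lower. On the shared slide the median over the lists was -0.07.

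Between Spi-C and TSA(-), 11 genes were higher and 5 lower, with 11.5% of all probes higher and 9.2% lower, and the median over the lists was 0.15 against 0.13 over all probes. The split moved to 10 and 7 with quantile normalization, to 4 and 10 when arrays were centred on their median, and to 13 and 16 with normexp. Over all probes the counts in the same order were 4024 higher and 3786 lower, 2842 and 5040, and 3853 and 13137. More probes were thus lower than higher after centring and with normexp, but not with quantile normalization. By list, higher and lower were 2 and 3 of the sensing genes, 4 and 1 of the inflammasome genes, 2 and 1 of the interferon-stimulated genes, 2 and 0 of the receptor list and 1 and 0 of the enzymes. *Nlrp1a*, an inflammasome receptor above background on 2 of 8 TSA(-) arrays, was higher by 2.13 (SE 0.61, adjusted p = 0.00872), *Pycard*, the inflammasome adaptor ASC, by 1.21 (SE 0.22, adjusted p = 0.000131) and *Tlr9*, the receptor of unmethylated DNA, by 1.15 (SE 0.15, adjusted p = 1.16e-06), while *Cxcl10* was lower at -0.87 (SE 0.16, adjusted p = 0.000192) and *Dhx58* at -0.81 (SE 0.23, adjusted p = 0.00866). Smaller increases were those of *Bst2* at 0.47 (SE 0.11, adjusted p = 0.00182), *Ifnar1* at 0.72 (SE 0.17, adjusted p = 0.00232), *Rela* at 0.45 (SE 0.10, adjusted p = 0.000713) and *Rnaseh2c* at 0.63 (SE 0.16, adjusted p = 0.00338). Between the concentrations of Spi-C mRNA, none of the 87 genes passed in limma, with 4 at an unadjusted p under 0.05 beside 1624 of the 39517 probes, and after adjustment 0.00506% of all probes were higher and 0% lower.

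Between Cumulus and TSA(-), 50 genes were higher and 11 lower, with 24.5% of all probes higher and 30.5% lower, and the median over the lists was 1.62 against -0.11 over all probes. The split of the lists was 50 and 12 with quantile normalization, 67 and 6 after centring on the median and 57 and 11 with normexp. The balance of all probes turned with these scalings, with 11634 higher and 10750 lower, 15596 and 8542, and 18245 and 9836. By list, higher and lower were 12 and 4 of the sensing genes, 9 and 1 of the inflammasome genes, 16 and 3 of the interferon-stimulated genes, 8 and 2 of the receptor list and 5 and 1 of the enzymes. *Il1b*, the cytokine released through inflammasomes, was higher by 10.31 (SE 0.46, adjusted p = 5.44e-18), *Tlr7*, the endosomal receptor of single-stranded RNA, by 8.39 (SE 0.42, adjusted p = 1.23e-16) and *Casp4* by 7.51 (SE 0.50, adjusted p = 6.45e-14). In TSA(-) *Il1b* and *Casp4* were each above background on 2 of 8 arrays and *Tlr7* on 1. *Rsad2* (3 of 8 TSA(-) arrays above background) was higher by 8.55 (SE 1.40, adjusted p = 3.87e-06), *Gbp2* (7 of 8) by 7.98 (SE 0.44, adjusted p = 1.38e-15), *Il6* (3 of 8) by 7.43 (SE 0.83, adjusted p = 4.52e-09), *Ifnar2* by 5.56 (SE 0.61, adjusted p = 2.5e-09) and *Rnaseh2a* by 4.62 (SE 0.38, adjusted p = 6.48e-12). *Cgas* was lower at -5.98 (SE 0.28, adjusted p = 1.6e-17), on 3 of 4 Cumulus arrays above background. The summed leukocyte markers were 5.88 ± 1.05 on the same Cumulus arrays (n = 4), and their part in these counts was not tested.

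**Figure D3:**
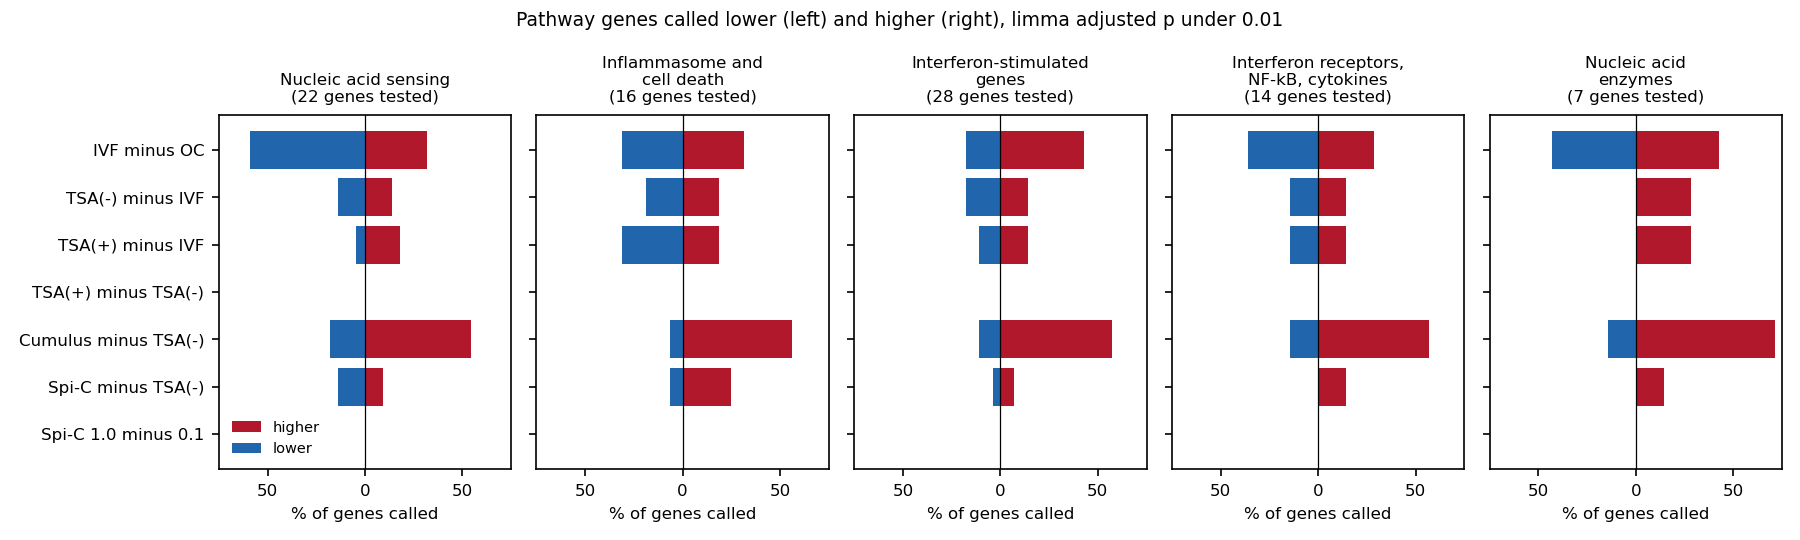
Share of the genes of each pathway list called higher (right) or lower (left) in each of the 7 comparisons, at a limma adjusted p under 0.01. Calls were many in IVF minus OC and in Cumulus minus TSA(-), and there were none in TSA(+) minus TSA(-) or between the Spi-C concentrations.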

How the data were processed

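The authors deposited, for each of the 39 arrays, the processed intensity of every spot, made with Agilent Feature Extraction (background subtracted, not normalized between arrays), and the authors' table of log2 values. The file headers name version 9.5.3.1 for 27 arrays and 10.5.1.1 for 12, while the deposited notes name 9.5.3.1 for all. When the intensity was divided by the 75th percentile on its array and centred by probe, 99.64% of the authors' values were within 0.1, and their array medians ran from -0.2974 to 1.077.

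Outlier spots were not used, which gave 1820 missing values. Of 41174 probes, 27829 had 1 gene symbol in the RefSeq annotation of GRCm38.p6, 32 had several and 13313 had none. Probes with an intensity of at least 10 on at least 1 IVF or cloned-embryo array were tested (39517), and all 9 members passed. limma 3.58.1 in R 4.3.3 was used at an adjusted p under 0.01, with OC, IVF, TSA(-), TSA(+) and Cumulus fitted together, and IVF, TSA(-), TSA(+) and Spi-C together. Each gene is given by its probe of highest mean level. Members were compared as means with their standard errors, without a test.

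The members and lists were chosen with earlier results of these data known. Named were all members, the 2 to 4 genes of each list (1 where no more qualified) with the largest differences, out of the up to 25 largest per comparison among genes called and detected on each array of the group with the higher level, and for each member up to 2 genes most correlated with it. Alternatives were quantile normalization, centring on the median, normexp with an offset of 50, the authors' values, other filters, thresholds and probes, fewer groups in the fit, slide, scan day or replicate number as a block (statmod 1.5.0), and leaving out each array. Scripts were tested on simulated data. Python 3.11.15, numpy 2.4.6, pandas 2.3.3 and matplotlib 3.10.9 were used. Dim probes are limited by signal over background.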

Additional observations from a re-analysis of the deposited data

Results flagged for a closer look

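*Zbp1* on replicate 2 of TSA(-) stood apart from the other arrays of its group, at -0.47 where the other 7 lay between 1.51 and 2.95. The gap to the nearest of them was 0.578 of the range of the group. Of 39 groups of values examined in this way, this was the only one past the limit, and chance passes about 1 in 20.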

How the results depend on the processing

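The number of pathway genes called stayed within 1.5 times its reported value under the alternatives run, except as follows. With slide as a fixed block, TSA(-) minus IVF had 13 calls in place of 27. With an adjusted p under 0.05, TSA(+) minus TSA(-) had 1 in place of 0 and Spi-C minus TSA(-) 28 in place of 16. A wider threshold admits more genes by its construction. With normexp background correction, Spi-C minus TSA(-) had 29, while over all probes 16990 were called in place of 8176. The cause of the changes with slide and normexp was not tested. Leaving out single arrays kept IVF minus OC at 56 to 62, TSA(-) minus IVF at 25 to 28, TSA(+) minus IVF at 23 to 25, Cumulus minus TSA(-) at 59 to 62 and Spi-C minus TSA(-) at 12 to 16. Scan day as a block was chosen after seeing the data.

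With replicate number as a block, Spi-C minus TSA(-) had 6 calls. In 40 pairs of arrays with the same number, deviations from the group means correlated with an r from -0.0875 to 0.0846 across probes, and the numbers were not taken to pair the samples.

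For the 44 differences whose gene was above background on all arrays of at least 1 compared group, of the values under other scalings, probes and left-out arrays, 729 moved by less than the spread between replicates, 18 by more (all under scalings or probes) and 0 of the differences between groups without overlap reversed, the probes here being averaged for each gene. The second probe of *Ifih1*, above background on no array, gives no direction by itself. Signal over background limits *Aim2*, *Naip2*, *Naip6* and the second probe of *Ifih1*.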
